A study of Mus musculus with 2 samples.

Results

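The genes described here are 10 transcription factors that set the fate of T cells, *Tcf7*, *Tox*, *Tbx21*, *Eomes*, *Id2*, *Id3*, *Bach2*, *Prdm1*, *Runx3* and *Gata3*, chosen by name and matched by symbol in the deposited gene list. All 10 were found among the 32285 genes counted. They were measured in CD8+ tumor-infiltrating lymphocytes (TIL) from male C57Bl/6J mice aged 16 weeks that carried a transplanted B16 F0 melanoma. One library came from lean mice on normal chow (NC) and 1 from obese mice on western diet (WD). In both, CD8+ TIL were enriched on magnetic beads and then sorted by flow cytometry to a purity of at least 99%, before droplet capture and 3′ sequencing. How many mice went into each library is not given in the sources used here, and diet, weight and library cannot be told apart.

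A naive CD8+ T cell that meets antigen either becomes a short-lived killer, persists as memory, or, under lasting antigen in a tumor, becomes exhausted. Several of these factors act as opposing pairs on that choice. TCF-1, the product of *Tcf7*, maintains naive, memory and progenitor cells, and TOX drives the exhausted program. T-bet (*Tbx21*) and Eomesodermin (*Eomes*) are related T-box factors that favor effector and memory or late exhausted cells, respectively. ID2 and ID3 are inhibitors of E proteins, of which ID2 is dominant in effector cells and ID3 in memory precursors, while BACH2 restrains effector genes and BLIMP-1 (*Prdm1*) ends the memory option. RUNX3 establishes the CD8+ lineage and its cytotoxic genes, and GATA3 is required for T cell development and maintenance.

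After cells with 7.5% or more mitochondrial UMIs, with 500 UMIs or fewer or with 50000 or more were left out, 2456 of 2697 NC cells and 2289 of 2623 WD cells remained. A UMI marks 1 captured RNA molecule. The kept cells held 27815785 UMIs in NC and 28705830 in WD, with medians of 7958 and 9103 UMIs per cell. Levels are given as CPM, counts per 1e+06 UMIs of the same cells, with an exact Poisson 95% interval. At this depth a count of 0 over all cells allows up to 0.108 CPM in NC and 0.105 CPM in WD. Differences between the diets are log2 ratios (WD over NC), each followed by its 95% interval from the exact binomial distribution of the UMIs given their sum. Because each diet had 1 library, no test between diets could be made, and every interval covers counting error only, not differences between mice. Levels are compared between cells and not between genes, since 3′ capture differs from gene to gene. Fewer cells of a type and less RNA per cell cannot be told apart in values over all cells.

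The sort was checked first. A UMI of *Cd8a* or *Cd8b1* was found in 96.1% of NC and 96.7% of WD cells, and a UMI of *Cd4* in 0.692% and 0.786%. The summed level of 4 B cell markers was 3.27 CPM in NC and 4.22 CPM in WD, that of 5 melanoma markers 1.22 and 1.43 CPM, and that of 6 myeloid markers 23.3 and 22 CPM. The 5 red cell markers were at 0 in NC and at 320.5 CPM in WD. The kept cells of both libraries shared 2 barcodes.

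To describe the factors by cell state, both libraries were clustered together with the 10 factors left out of the variable genes. Cluster 0 (506 NC and 763 WD cells) was led by *Gzma*, *Ccl5* and interferon-stimulated genes such as *Ifit3*. Cluster 1 (483 and 577 cells) was proliferating-like, with *Pclaf*, *Birc5* and *Stmn1*. Cluster 2 (570 and 430 cells) was naive- or memory-like, with *Satb1*, *Lef1* and *Ccr7*. Cluster 3 (611 and 316 cells) was effector-like, with *Gzmd*, *Gzmf* and *Gzme*, and also *Penk* and *Lyz2*. Cluster 4 (278 and 188 cells) held shallow cells with a median of 2640.5 UMIs against 8518 over all cells. Its leading genes included 4 hemoglobin genes and also *Gm26917*, *Rmrp*, *Lars2* and *Gm42418*. It held 9166 of the 9201 red cell marker UMIs, all in WD (11604 CPM there and 0 in NC). Since its NC cells held none, it was not named. Cluster 5 (8 and 15 cells) was dendritic-like. Its cells served as the only other cell type for reading free RNA, and they were few: 0 of 15 WD cells with *Eomes* after thinning allowed a share of up to 21.8%. They held *Eomes* at 0 CPM in NC (0 to 33.3) and 7.40 CPM in WD (0.896 to 26.7). *Tbx21* stood at 9.04 CPM in NC (0.229 to 50.4) and 11.1 CPM in WD (2.29 to 32.4). These levels were below those of clusters 0 to 4. The *Eomes* interval of NC held the levels of clusters 1 and 3 in NC. Each *Tbx21* interval held the levels of clusters 0 to 3 in the same library. They held *Tcf7* at 45.2 and 40.7 CPM and *Id3* at 81.3 and 81.4 CPM, above the levels of *Tcf7* in clusters 1, 3 and 4, of *Id3* in clusters 0, 1, 3 and 4, and of *Id3* in cluster 2 of WD. Their *Id2*, at 127 and 181 CPM, was above that of cluster 2 in each library, with overlapping intervals. Their *Tox*, at 18.1 CPM in NC (2.19 to 65.3) and 11.1 CPM in WD (2.29 to 32.4), had intervals that held the *Tox* levels of cluster 2 in both libraries and of cluster 0 in NC. Whether dendritic cells lack these genes is not known from these data, and the part of free RNA in the levels named here was not tested. Doublets were not called.

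**Figure D1:**
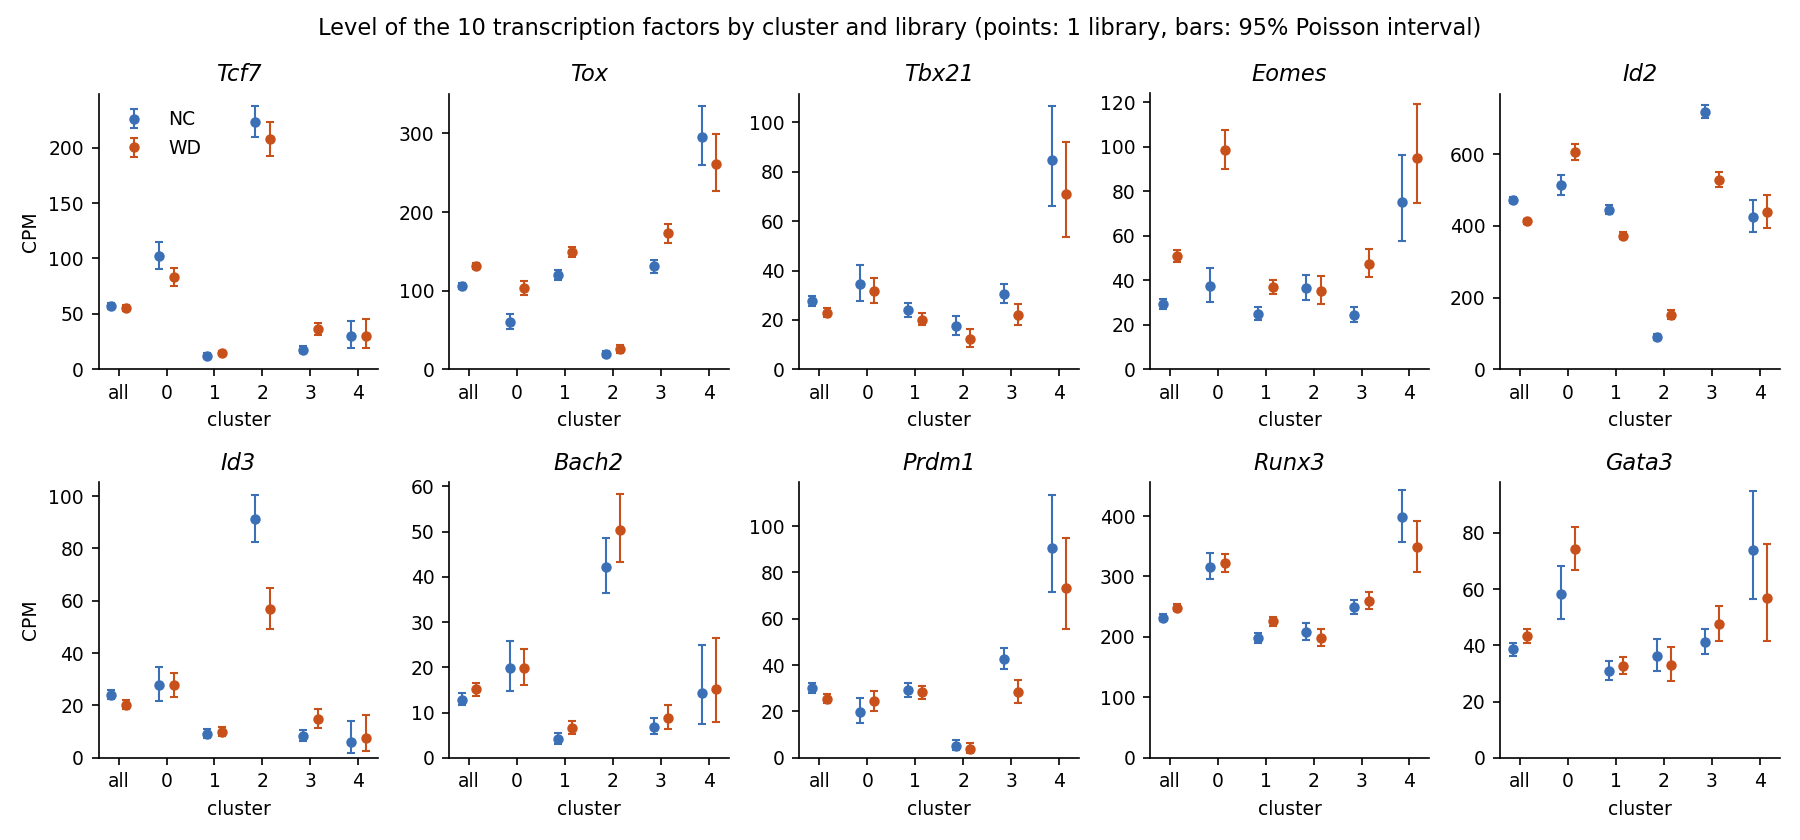
Level of each factor in CPM (vertical axes from 0, different for each gene) over all cells and in clusters 0 to 4, with NC in blue and WD in orange. Points are 1 library each and bars are exact Poisson 95% intervals. *Tcf7*, *Id3* and *Bach2* were highest in cluster 2, and *Eomes* in cluster 0 stood at 37.4 CPM in NC and 98.5 CPM in WD.

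Among clusters 0 to 4, the factors were not all highest in the same cluster. Cluster 5 was left out of this order, though its *Id3* stood at 81.3 CPM in NC and 81.4 CPM in WD. *Tcf7*, *Id3* and *Bach2* were highest in the naive- or memory-like cluster 2, at means of the libraries of 215, 73.9 and 46.2 CPM. *Tox*, *Tbx21*, *Eomes*, *Prdm1* and *Runx3* had their highest mean of the libraries in the shallow cluster 4, at 278, 77.8, 85.0, 82.0 and 373 CPM, though *Eomes* in WD was higher in cluster 0 (98.5 CPM) than in cluster 4 (94.9 CPM). There the red cell RNA of WD was found and mitochondrial RNA was higher, with a median of 4.14% of UMIs against 2.34% over all cells. The part of either in those levels was not tested. By the same mean, *Id2* was highest in the effector-like cluster 3 (623 CPM) and *Gata3* in cluster 0 (66.2 CPM), but the order turned between libraries. *Id2* in WD was higher in cluster 0 (606 CPM) than in cluster 3 (528 CPM), and *Gata3* in NC was higher in cluster 4 (73.9 CPM) than in cluster 0 (58.3 CPM). From the highest to the lowest of clusters 0 to 4, *Prdm1* spanned 18.2-fold, *Tcf7* 16.0-fold, *Tox* 12.4-fold and *Id3* 10.9-fold. *Runx3* spanned 1.83-fold, the least of the 10. These differences between clusters are a description, because the cells were grouped by their RNA.

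Between the diets, over all cells, 1 factor differed by more than 1.5-fold. *Eomes* stood at 29.3 CPM in NC and 50.8 CPM in WD (log2 ratio 0.79, 0.67 to 0.92). Of the 7064 genes that reached 10 CPM in NC or WD and 20 UMIs in both together, 1.66% were past 1.5-fold higher in WD and 1.32% past it lower, beside 1 and 0 of the 10 factors. *Tox* was higher in WD by less, at 106 and 131 CPM (0.31, 0.24 to 0.38). *Tbx21* was lower in WD, at 27.6 and 22.9 CPM (-0.27, -0.42 to -0.12). *Prdm1* was also lower, at 30 and 25.6 CPM (-0.23, -0.38 to -0.09). *Id2* stood at 472 and 413 CPM (-0.20, -0.23 to -0.16) and *Id3* at 24.1 and 20.3 CPM (-0.25, -0.41 to -0.08). The lower *Id2* and *Id3* depended on how cells were weighted: as a mean of the clusters the ratios were 0.07 and 0.12. *Bach2* was at 12.9 and 15.2 CPM (0.24, 0.03 to 0.44). *Tcf7* stood at 57.2 and 55.4 CPM, with an interval of the ratio that included 0 (-0.15 to 0.06). *Runx3* at 232 and 248 CPM and *Gata3* at 38.6 and 43.2 CPM were slightly higher in WD, with log2 ratios of 0.10 and 0.16, the first of which was -0.03 when cells were thinned to 1000 UMIs. The median over all tested genes was 0.04 on the same scale.

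**Figure D2:**
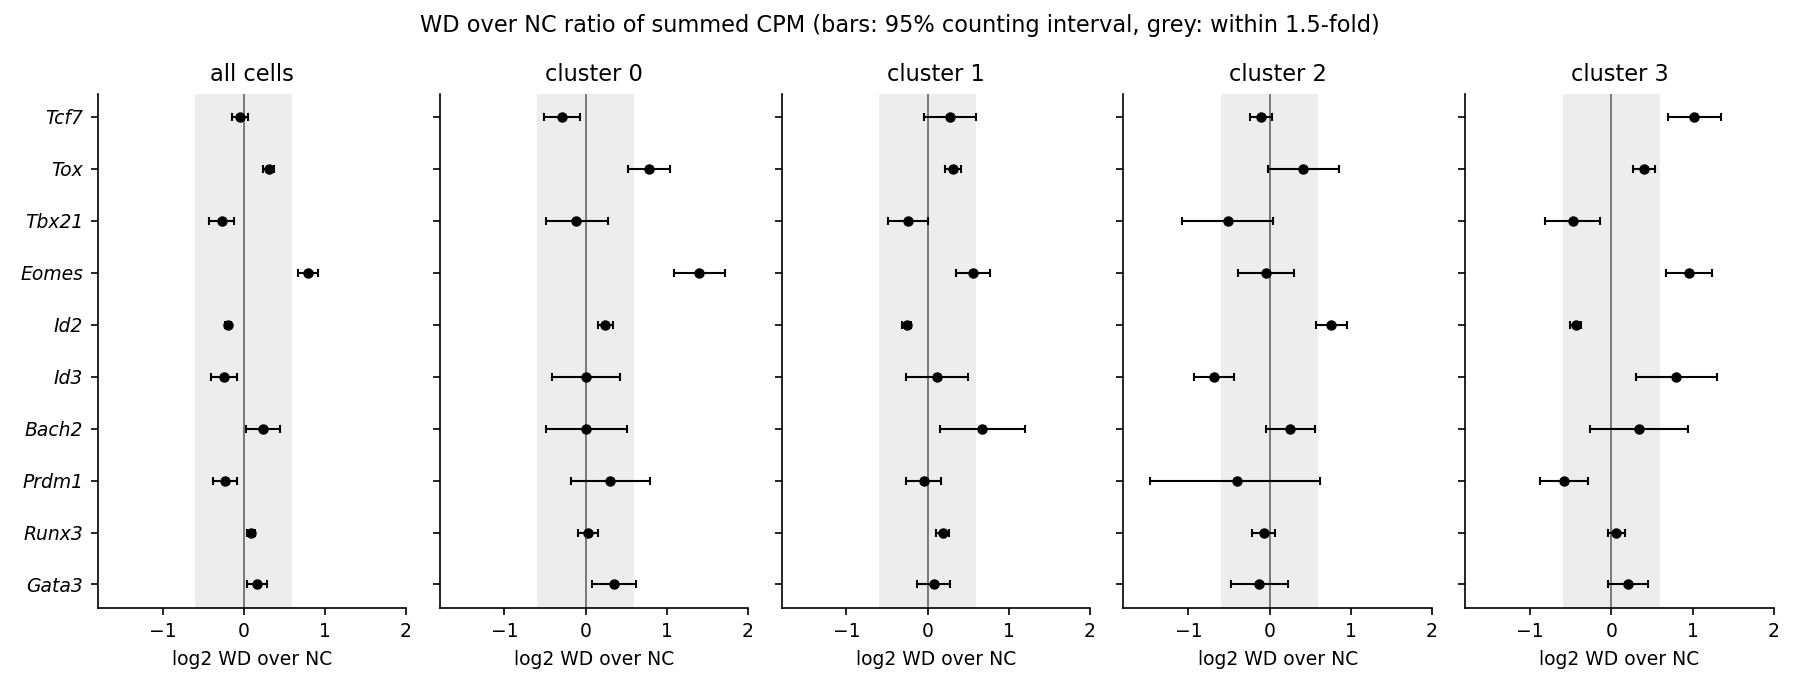
Log2 ratio of WD over NC (horizontal axis) of the 10 factors over all cells and within clusters 0 to 3. Points are ratios of summed CPM, bars are exact conditional 95% intervals for counting error, and the grey band marks ratios within 1.5-fold. *Eomes* lies right of the band over all cells and in clusters 0 and 3, and *Id2* and *Id3* lie on opposite sides of 0 in clusters 2 and 3.

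Over all cells, the T-box pair had the largest shift of the 4 pairs between the libraries. *Tbx21* (chr11:97098071-97115331, minus strand) and *Eomes* (chr9:118478212-118486132, plus strand; GRCm38) are shown with the 250 bases before their start sites, from RefSeq on GRCm38.p6, so that the windows of the 2 family members can be compared beside their RNA levels. The windows are chr11:97115332-97115581 on the minus strand and chr9:118477939-118478188 on the plus strand, and neither overlaps an annotated exon. Capitals mark 4 motifs searched on both strands: the E-box CANNTG, the CCAAT box, the GC box GGGCGG and the RUNX motif TGTGGT.
Tbx21: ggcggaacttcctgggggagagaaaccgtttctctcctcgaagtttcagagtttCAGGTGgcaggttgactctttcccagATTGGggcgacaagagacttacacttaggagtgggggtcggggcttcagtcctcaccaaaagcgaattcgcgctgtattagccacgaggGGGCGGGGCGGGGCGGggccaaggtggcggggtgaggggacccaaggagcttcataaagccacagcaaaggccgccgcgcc
Eomes: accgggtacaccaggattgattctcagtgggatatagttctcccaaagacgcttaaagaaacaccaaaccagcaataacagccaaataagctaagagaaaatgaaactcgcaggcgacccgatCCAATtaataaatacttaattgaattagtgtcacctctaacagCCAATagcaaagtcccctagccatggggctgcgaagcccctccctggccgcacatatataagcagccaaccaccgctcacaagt
The *Tbx21* window held 1 E-box, 1 CCAAT box and 3 GC boxes that overlap one another, and the *Eomes* window held 2 CCAAT boxes and no match to the other motifs. Matches to different motifs did not overlap. Of 32851 windows of this length, 66.2% held an E-box, 33.8% a CCAAT box, 32.7% a GC box and 14% the RUNX motif, so each match is a description of the letters only.

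In cluster 0, *Eomes* stood at 37.4 CPM in NC (30.4 to 45.4) and 98.5 CPM in WD (90.1 to 107), a log2 ratio of 1.40 (1.09 to 1.72). This was the largest ratio of any factor in clusters 0 to 3. *Tbx21* in the same cells stood at 34.4 and 31.7 CPM, with intervals that overlapped. After each cell was thinned to 2000 UMIs, to set the libraries at 1 depth, 7.16% of 475 NC cells and 14.4% of 700 WD cells had a UMI of *Eomes* (unthinned 13.4% and 31.5%). The 10 cells with the most *Eomes* UMIs held 28.0% of the *Eomes* UMIs of cluster 0 in NC and 15% in WD. In cluster 3, 10 such cells held 22.5% in NC and 35.4% in WD. In cluster 3, *Eomes* was again higher in WD, at 24.5 and 47.5 CPM (0.96, 0.68 to 1.24), and *Tbx21* lower, at 30.6 and 22 CPM (-0.48, -0.82 to -0.14). In the proliferating-like cluster 1, *Eomes* stood at 25.1 and 36.9 CPM (0.56, 0.35 to 0.77). In cluster 2, by contrast, *Eomes* was at 36.3 CPM in NC and 35.3 CPM in WD, a difference within counting error (-0.39 to 0.30).

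The ratio of 2 genes within the same cells does not depend on library size, so the pairs were also compared by their shift, the log2 ratio of the first over the second gene in WD minus that in NC. For *Tbx21*/*Eomes* the shift over all cells was -1.07 (-1.26 to -0.87), from 767 and 815 UMIs in NC and 656 and 1459 UMIs in WD. It was -1.51 in cluster 0, -0.80 in cluster 1 and -1.43 in cluster 3, each with an interval below 0. In cluster 2 (-0.47, -1.13 to 0.19) and cluster 4 (-0.59, -1.34 to 0.15) the intervals included 0. Clustering the same cells more finely gave 13 subclusters, of which 9 held 122 cells or more. In all 9 the *Tbx21*/*Eomes* shift was negative, from -0.16 in subcluster 2 (*Klra7*, *Pde2a*) to -1.90 in subcluster 6 (*Lef1*, *Igfbp4*). The interval included 0 in subclusters 2 (-0.89 to 0.56), 5 (-1.40 to 0.38) and 6 (-3.89 to 0.07). The value of subcluster 6 rests on 7 to 32 UMIs per gene and library. Differences in the size of the shift between states were not tested.

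**Figure D3:**
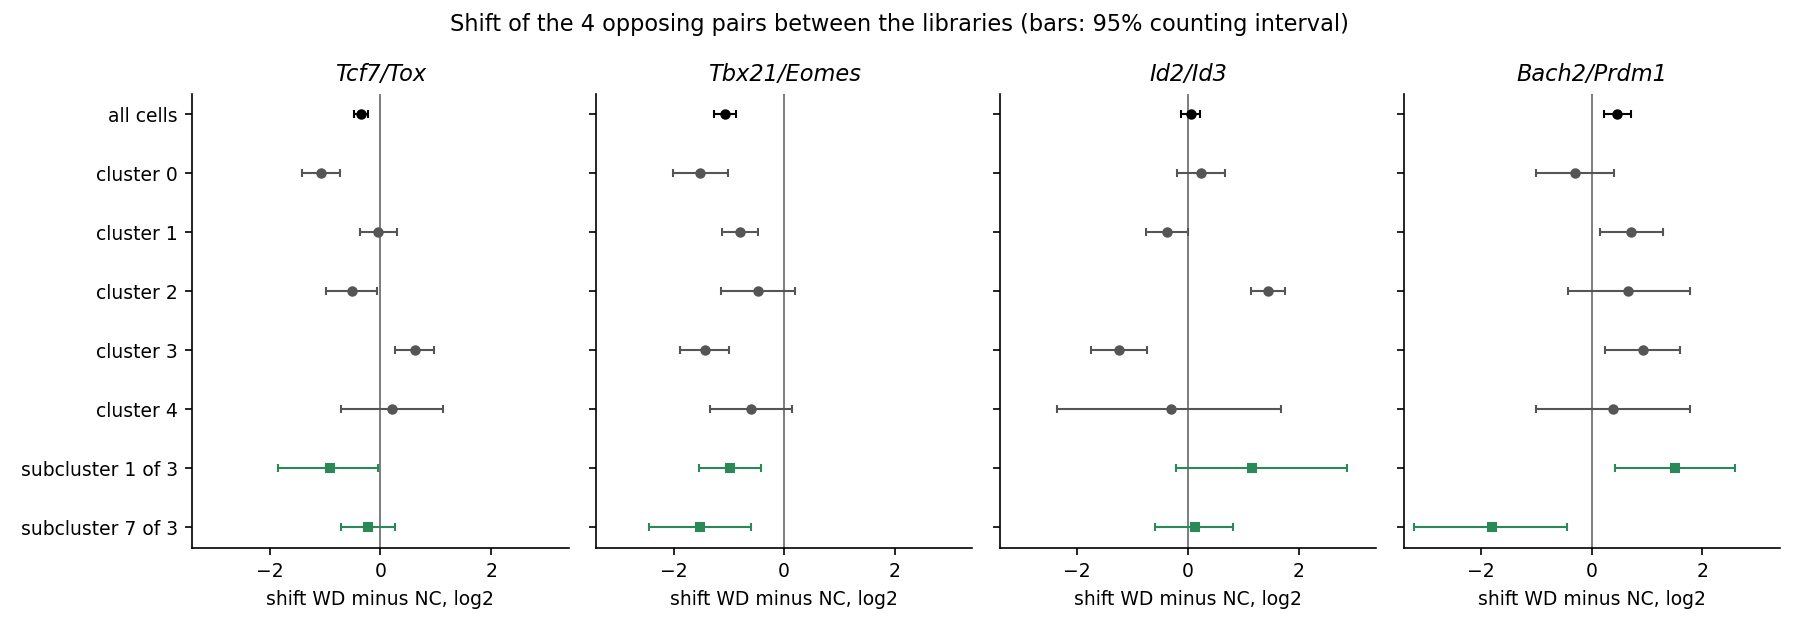
Shift of each opposing pair, as the log2 ratio of the first over the second gene in WD minus that in NC (horizontal axis), over all cells, in clusters 0 to 4 and in the cells of cluster 3 that fell in subclusters 1 and 7. Bars are exact conditional 95% intervals for counting error. *Tbx21*/*Eomes* lies left of 0 in every row, from -0.47 to -1.52, while *Tcf7*/*Tox* and *Id2*/*Id3* change side between clusters, and in cluster 3 also between the cluster and its subclusters.

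*Tcf7* and *Tox* parted most clearly by cell state. *Tcf7* (chr11:52252371-52283014) stood at 223 CPM in NC and 207 CPM in WD in cluster 2, and at 12.2 and 14.8 CPM in cluster 1. *Tox* (chr4:6686353-6991557) went the other way, with 19.2 and 25.6 CPM in cluster 2 and 120 and 149 CPM in cluster 1. From cluster 2 to cluster 1 of WD, the *Tcf7*/*Tox* ratio fell by 6.35 on the log2 scale.

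Between the libraries the pair depended on the state. In cluster 0, *Tox* stood at 60.5 CPM in NC and 104 CPM in WD (0.78, 0.52 to 1.04), and *Tcf7* at 102 and 83.1 CPM (-0.30, -0.52 to -0.07). The lower *Tcf7* was not seen with cells thinned to 1000 UMIs (0.05). The shift was -1.07 (-1.42 to -0.73). The NC level of *Tox* here lay within the interval of the dendritic-like cells. *Tox* and *Eomes* were the 2 of 10 factors past 1.5-fold higher there, where 4.07% of all tested genes were higher and 2.49% lower by that much. In cluster 1 both genes leaned the same way and the shift was -0.04 (-0.37 to 0.29). No factor of the 8 tested in cluster 1 was past 1.5-fold, beside 2.07% of genes higher and 1.84% lower. In cluster 2 the shift was -0.52 (-0.99 to -0.06), from *Tox* levels that also lay within that interval. It was -0.87 (-1.41 to -0.33) in subcluster 2 and -0.03 (-1.03 to 0.93) in subcluster 6, which share leading genes with cluster 2.

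In the effector-like cluster 3 the direction turned. *Tcf7* stood at 17.7 CPM in NC and 36.1 CPM in WD (1.02, 0.70 to 1.35), more than *Tox* at 131 and 173 CPM (0.40, 0.27 to 0.53), for a shift of 0.62 (0.27 to 0.98). *Tcf7*, *Eomes* and *Id3* were past 1.5-fold higher in WD among the 9 factors tested there, beside 6.25% of all genes, and none was past it lower, beside 3.01%. The cells of cluster 3 fell mainly into 2 subclusters in different proportions. Subcluster 1, with *Gzmd*, *Gzmf* and *Prf1*, held 82.7% of the NC cells and 54.4% of the WD cells of cluster 3. Subcluster 7, with *Cd81*, *Xcl1* and *Cxcl13*, held 15.9% and 41.1%. *Tcf7* was low in subcluster 1, at 7.57 CPM in NC and 5.26 CPM in WD, and higher in subcluster 7, at 75.3 and 87.4 CPM. Within each, the *Tcf7* ratio had an interval that included 0 (-1.46 to 0.32 and -0.17 to 0.60). The *Tcf7*/*Tox* shift was -0.91 (-1.86 to -0.04) within subcluster 1 and -0.22 (-0.71 to 0.27) within subcluster 7, so the positive shift of cluster 3 was not seen within either. *Eomes*, in contrast, was higher in WD within both, at 22.3 and 34.4 CPM in subcluster 1 (0.62, 0.24 to 1.0) and at 34.3 and 69.2 CPM in subcluster 7 (1.01, 0.49 to 1.56). The lower *Tbx21* of cluster 3 had intervals that included 0 within each subcluster. Its log2 ratio was -0.36 (-0.78 to 0.04) in subcluster 1 and -0.51 (-1.24 to 0.22) in subcluster 7.

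The inhibitors of E proteins leaned in opposite directions in different states. *Id2* (chr12:25093799-25097140) and *Id3* (chr4:136143497-136145755) gave an *Id2*/*Id3* shift of 0.05 over all cells, with an interval that included 0 (-0.12 to 0.22). Within the naive- or memory-like cluster 2, *Id2* was higher in WD, at 89.6 and 152 CPM (0.76, 0.57 to 0.95), and *Id3* lower, at 91.2 and 56.7 CPM (-0.68, -0.93 to -0.44). The shift was 1.45 (1.13 to 1.76). The *Id2* levels and the WD level of *Id3* were below those of the dendritic-like cells of the same library, with overlapping intervals. These were the only factors of the 9 tested there past 1.5-fold, 1 in each direction, beside 3.63% of genes higher and 2.85% lower. After thinning, a UMI of *Id2* was found in 14.9% of 570 NC cells and 22.3% of 430 WD cells of cluster 2, and a UMI of *Id3* in 15.6% and 9.53%. Subclusters 2 (*Klra7*, *Pde2a*) and 6 (*Lef1*, *Ccr7*), which share leading genes with cluster 2, had shifts of 1.35 (0.99 to 1.71) and 0.88 (0.14 to 1.60).

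In cluster 3 the pair leaned the opposite way. *Id2* stood at 718 CPM in NC and 528 CPM in WD (-0.44, -0.51 to -0.38), and *Id3* at 8.44 and 14.7 CPM (0.80, 0.30 to 1.30), for a shift of -1.24 (-1.75 to -0.74). This too was not seen within subclusters 1 and 7 of cluster 3. *Id2* was lower in WD in subcluster 1, at 809 and 655 CPM (-0.30), and higher in subcluster 7, at 210.1 and 328 CPM (0.64). The shifts of 1.15 (-0.22 to 2.87) and 0.12 (-0.59 to 0.81) both had intervals that included 0, the first resting on 33 and 5 UMIs of *Id3*. In cluster 0, *Id2* was higher in WD, at 513 and 606 CPM (0.24). In cluster 1 it was lower, at 445 and 372 CPM (-0.26), though at 0.05 with cells thinned to 1000 UMIs. Other finer groups also leaned both ways. The *Id2*/*Id3* shift was -1.17 (-1.89 to -0.48) in subcluster 4 (*Nusap1*, *Top2a*) and 2.17 (0.73 to 3.82) in subcluster 8 (*Ifit3*, *Isg15*). Its interval included 0 in subclusters 0, 3 and 5.

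**Figure D4:**
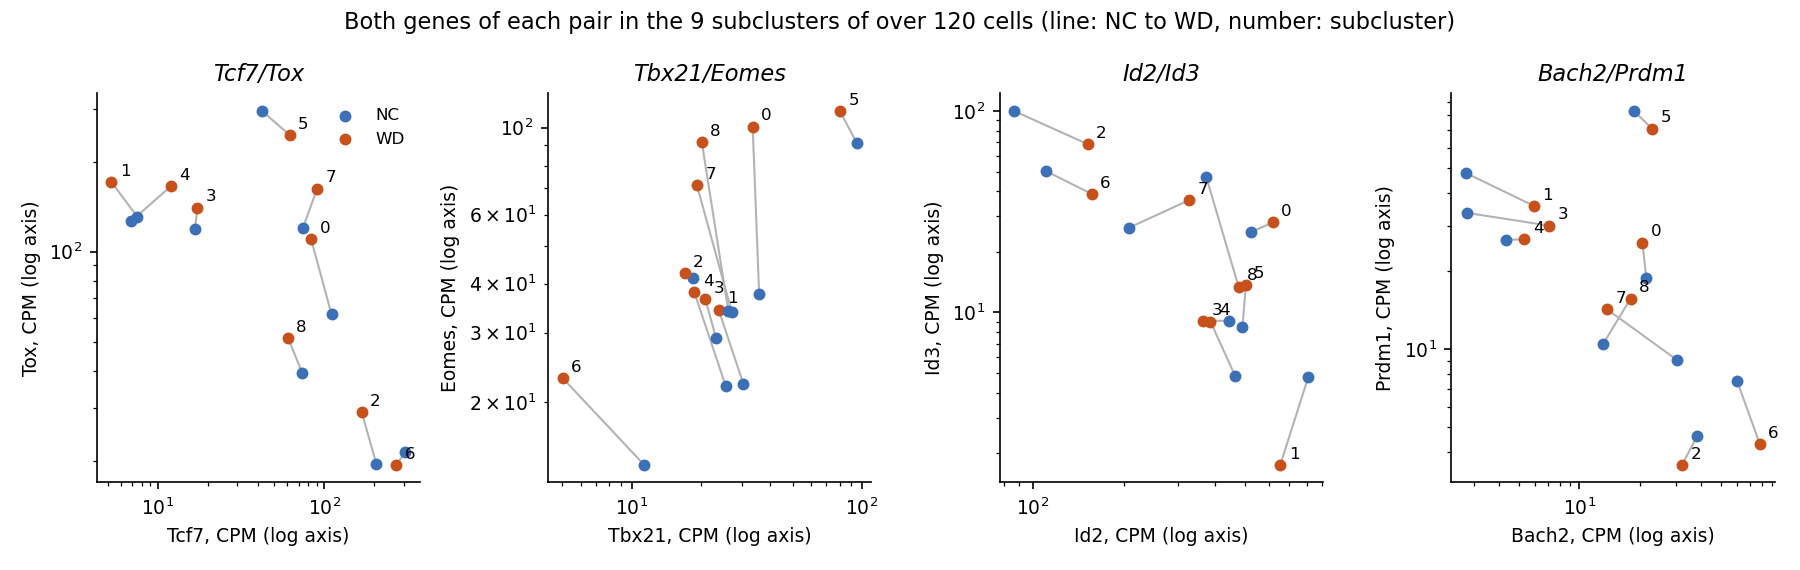
Level of the second gene of each pair (vertical, CPM on a log axis) against the first (horizontal, CPM on a log axis) in the 9 subclusters with 122 cells or more. Blue points are NC, orange points WD, joined by a line and numbered by subcluster. Lines for *Tbx21*/*Eomes* run up and to the left, and those of subclusters 2 and 6 for *Id2*/*Id3* run down and to the right.

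*Bach2* and *Prdm1* were the lowest pair in counts and separated the naive- or memory-like cells from the rest. *Bach2* (chr4:32238804-32586108) stood at 42.1 CPM in NC and 50.3 CPM in WD in cluster 2, and at 4.16 and 6.60 CPM in cluster 1. The separately counted *Bach2it1*, which lies on the same strand within *Bach2*, makes part of its reads uncertain. *Prdm1* (chr10:44437177-44528501) stood at 5.13 and 3.89 CPM in cluster 2 and at 29.1 and 28.2 CPM in cluster 1. Over all cells the *Bach2*/*Prdm1* shift was 0.47 (0.21 to 0.72), from 12.9 and 15.2 CPM of *Bach2* and a lower level of *Prdm1* in WD. It was 0.71 (0.15 to 1.29) in cluster 1 and 0.93 (0.24 to 1.60) in cluster 3. In cluster 3 *Prdm1* stood at 42.5 and 28.4 CPM (-0.58, -0.88 to -0.29). Within subcluster 1 *Prdm1* was lower in WD, at 47.3 and 35.8 CPM (-0.40, -0.74 to -0.08), with a pair shift of 1.51 (0.42 to 2.59). Within subcluster 7 the shift was -1.81 (-3.21 to -0.44), from 37 and 25 UMIs of *Bach2* and 11 and 26 UMIs of *Prdm1*. The 2 subclusters of cluster 3 thus leaned opposite ways.

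*Runx3* and *Gata3* have no partner here. *Runx3* (chr4:135120652-135177990) was detected in 76.7% of NC and 79.1% of WD cells and was higher in WD in cluster 1, at 198 and 226 CPM (0.19, 0.11 to 0.26). Its interval included 0 in clusters 0, 2, 3 and 4. *Gata3* (chr2:9857078-9890034) stood in cluster 0 at 58.3 CPM in NC and 74.2 CPM in WD (0.35, 0.08 to 0.63). Its interval included 0 in the other 4 clusters of over 100 cells. None of the 9 factors tested in the shallow cluster 4 was past 1.5-fold in either direction, beside 10.4% of all genes higher and 11.6% lower.

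The pairs were then looked at within single cells, each thinned to 2000 UMIs, which kept 2330 NC and 2177 WD cells. A UMI of *Tox* was found in 4.26% of NC cells with *Tcf7* (2.29 to 7.18) and 18.7% of those without it (17.0 to 20.5). In WD the shares were 8.24% (5.30 to 12.1) and 21.0% (19.2 to 22.9). Both genes together were seen in 13 NC and 23 WD cells. *Id3* was found in 2.19% of NC cells with *Id2* and 8.58% without it, and in 2.78% and 5.46% in WD. These shares pool all clusters, and among clusters 0 to 4 *Id3* was highest and *Id2* lowest in cluster 2. The part of cell state in the *Id2*/*Id3* shares was not tested. With cells thinned to 1000 UMIs the log2 odds ratio of *Id2*/*Id3* in WD was -0.36 (-1.25 to 0.46), so the separation was not seen there. *Bach2* and *Prdm1* were detected together in 0 of 2330 thinned NC cells, which allows a share of up to 0.158% at 2000 UMIs, and in 2 of 2177 WD cells. Few cells held either gene, with *Bach2* in 69 NC and 105 WD cells and *Prdm1* in 115 and 97. In WD the log2 odds ratio was -1.31 (-4.39 to 0.62), so no separation was seen there at this depth. Without thinning both were detected in 26 of 2456 NC and 53 of 2289 WD cells. The log2 odds ratios were then -1.48 (-2.14 to -0.87) in NC and -0.57 (-1.05 to -0.11) in WD. For the T-box pair the shares did not part at 2000 UMIs, with *Eomes* in 4.70% of NC cells with *Tbx21* and 5.78% without, and in 11.2% and 10.2% in WD. Without thinning its log2 odds ratios were 0.45 (0.12 to 0.78) in NC and 0.26 (-0.05 to 0.57) in WD. Unthinned cells differ in depth, and the part of depth in these unthinned values was not tested. Within clusters, no clear *Tcf7*/*Tox* separation was seen in cluster 2 of NC, with *Tox* in 3.68% and 4.74% of cells with and without *Tcf7*. Only 25 of the 570 thinned cells there held a UMI of *Tox*, too few to tell such shares apart. In cluster 0 the shares were 1.30% and 12.6% in NC and 6.86% and 19.1% in WD. There the cells with *Tcf7* numbered 77 in NC and 102 in WD.

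**Figure D5:**
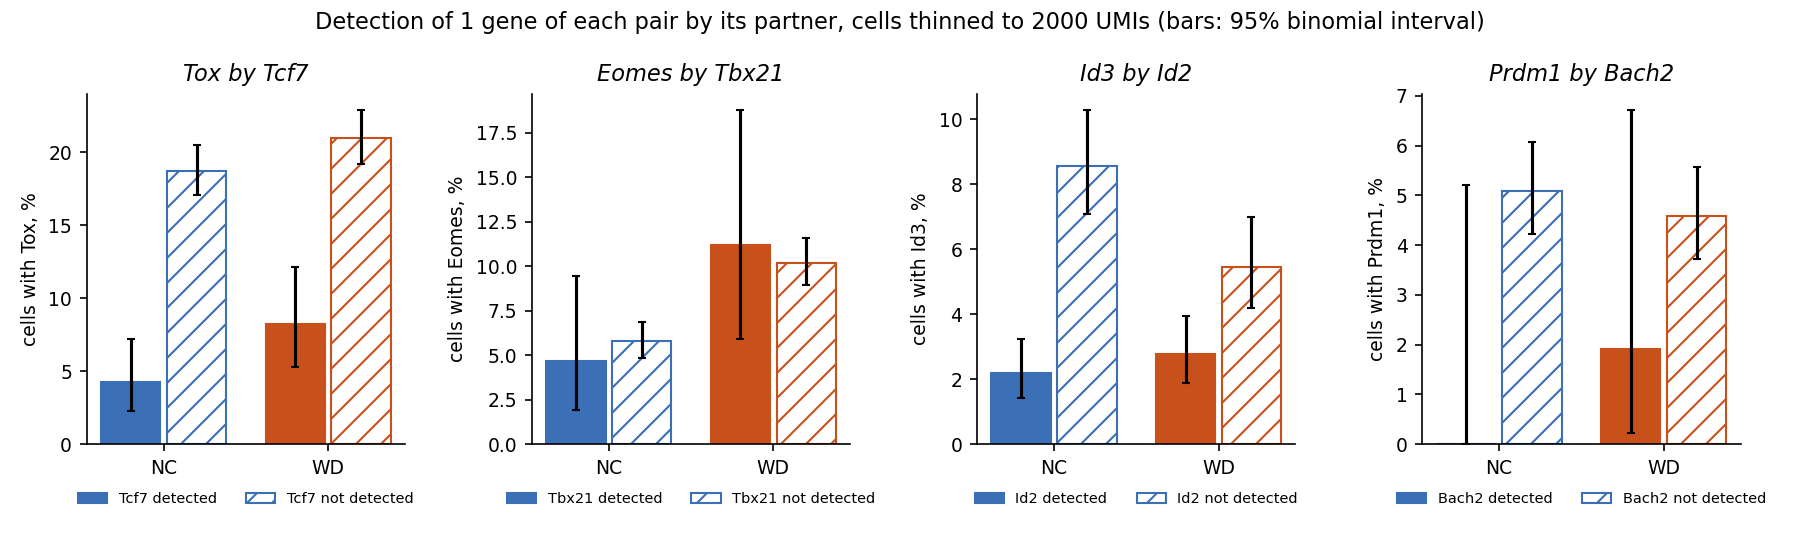
Share of cells (vertical axes from 0, in percent) with a UMI of the second gene of each pair among cells with the first gene (filled) and without it (hatched), in NC (blue) and WD (orange), all cells thinned to 2000 UMIs. Bars are exact binomial 95% intervals. *Tox* was found in 4.26% and 18.7% of NC cells with and without *Tcf7*, while for *Eomes* by *Tbx21* the intervals overlap in both libraries.

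With all clusters pooled, cells with *Tcf7* or *Tox* differed from those without in their program genes, at the same thinned depth. Of the thinned cells with *Tcf7*, 190 of 305 in NC and 143 of 279 in WD lay in cluster 2. The part of cell state in these differences was not tested. Cells with *Tcf7* held the 12 effector program genes at 748 CPM in NC and 781 CPM in WD, against 2541 and 1691 CPM in cells without it. Their 12 exhaustion genes stood at 321 and 355 CPM, against 1230.0 and 947 CPM. Cells with *Tox* held exhaustion genes at 1665 and 1289 CPM, against 999 and 771 CPM without it. In cluster 0, cells with *Eomes* held the effector genes at 1662 CPM in NC and 1624 CPM in WD, against 1811 and 1735 CPM, with overlapping intervals.

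Genes that work with or beside the factors were followed by lists. Among 15 tested paralogs and partners over all cells, 13 were higher in WD and 2 lower, with a median log2 ratio of 0.22. Of all 7064 genes 4079 were higher, with a median of 0.04. Past 1.5-fold were 1.66% of them higher and 1.32% lower, the shares to read beside each list here. One of the 15 was past 1.5-fold, *Zbtb32*, a repressor of T cell activation, at 24.8 CPM in NC and 12.9 CPM in WD. *Lef1*, the close relative of *Tcf7*, stood at 36 and 47.2 CPM. Of 19 other fate regulators, *Maf* was past 1.5-fold higher, at 14.4 and 26.1 CPM, and *Irf8* past it lower, at 178 and 110.2 CPM, with a list median of -0.06. Of 11 naive and memory genes 10 were higher in WD, beside 4079 of 7064 genes in all, with a median of 0.17. One of them was past 1.5-fold, *Slamf6*, a marker of progenitor exhausted cells, at 14.3 and 25.1 CPM. The effector program had a median of -0.38, with *Gzmb*, *Prf1*, *Cx3cr1* and *Il12rb2* past 1.5-fold lower and *Cxcr3* past it higher of 10 tested. The exhaustion program had a median of -0.48, with *Lag3*, *Havcr2*, *Entpd1* and *Cd244a* past 1.5-fold lower and *Nr4a2* past it higher of 10. *Lag3* stood at 278 and 150.3 CPM. The residency program had a median of -0.19 over 4 genes, none past 1.5-fold.

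In cluster 0, beside higher *Eomes* and *Tox*, *Ikzf2* (17.6 and 36.2 CPM) and *Maf* (44.5 and 67.0 CPM) were past 1.5-fold higher among 18 other fate regulators. *Irf8* was past it lower (43.3 and 24.5 CPM). Of all genes tested there, 4.07% were past it higher and 2.49% lower. Of the 18 regulators 8 were higher and 10 lower, with a median of -0.09. The exhaustion median was -0.35. In cluster 2, beside higher *Id2*, *Cxcr6* (19.8 and 32.0 CPM) and *Rgs1* (66.2 and 99.5 CPM) were past 1.5-fold higher of 3 residency genes, beside 3.63% of all genes. In the other lists of cluster 2, *Slamf6*, *Actn1*, *Zeb1*, *Bhlhe40*, *Mafg*, *Mafk*, *Ctla4* and *Nr4a2* were past it higher, and *Irf8*, *Runx2*, *Il18rap*, *Cd160* and *Tnfrsf9* past it lower. Tested there were 11 naive and memory genes, 16 other fate regulators, 14 paralogs and partners, 8 effector and 4 exhaustion genes. Of all genes 3.63% were past 1.5-fold higher and 2.85% lower. In cluster 3, beside higher *Tcf7* and *Id3*, 5 of 8 naive and memory genes were past 1.5-fold higher, beside 6.25% of all genes, among them *Ccr7* (32.7 and 79.6 CPM) and *Slamf6* (14.1 and 32.3 CPM), with a median of 0.96, while *Il7r* was past it lower (53.0 and 30.5 CPM). Of the 19 other fate regulators tested there, 10 were higher and 9 lower, with a median of 0.07. *Zeb1*, *Myb*, *Bhlhe40*, *Ikzf2* and *Maf* were past 1.5-fold higher and *Nfil3* past it lower, beside 6.25% and 3.01% of all genes. *Myb*, a factor of stem-like T cells, stood at 7.95 and 20.7 CPM. *Satb1*, a leading gene of cluster 2, was lower in WD, at 35.5 and 24.9 CPM. The different mix of subclusters 1 and 7 in the 2 libraries applies to the lists of cluster 3 as well. Subclusters 2 and 6, which share leading genes with cluster 2, also differed in mix. Subcluster 2 held 444 NC and 229 WD cells, and subcluster 6 held 126 and 206. The part of this mix in the lists of cluster 2 was not tested.

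The genes most like each factor were found by Pearson correlation of log2(CPM + 1) over 22 groups, the subclusters with at least 30 cells in each library, among 6898 genes. These groups come from the same libraries and differ widely in depth. Subcluster 10 had a median of 744 UMIs per cell and 20776 UMIs in all in NC, with 0 of *Tcf7* and 0 of *Bach2*. Subcluster 4 had a median of 26183 and 5784808 UMIs in NC. The part of depth in the correlations was not tested, and the values are a description. *Tcf7* was followed by *Tcp11l2*, *Sh3bp5* and *Cd72* (r = 0.90, 0.89 and 0.88), *Tox* by *Rgs16*, *Gpd2* and *Sh2d2a* (0.96, 0.96 and 0.95), and *Id2* by *Lsp1*, *Rgs1* and *Cxcr6* (0.93, 0.91 and 0.90). *Id3* was followed by *Tespa1*, *Pdlim1* and *Ccr7* (0.89, 0.87 and 0.86), *Bach2* by *Klf9*, *Nsg2* and *Pik3ip1* (0.92, 0.91 and 0.89), and *Prdm1* by *Atxn1*, *Atf6* and *Eloa* (0.95, 0.94 and 0.94). *Tbx21* was followed by *Tln1*, *Myo1f* and *Cyth4* (0.93, 0.91 and 0.91), and *Runx3* by *Dennd1b*, *Rap1gds1* and *Notch2* (0.95 each). *Eomes* was followed by *Slc3a2* and *Nr4a3* (0.84 and 0.83) and then by *Gata3* (0.82), which in turn followed *Fyn* and *Celf2* (0.84 and 0.83) and had *Eomes* as the third. Within the opposing pairs r was -0.76 for *Tcf7* and *Tox* and 0.55 for *Tbx21* and *Eomes*. It was -0.41 for *Id2* and *Id3* and -0.59 for *Bach2* and *Prdm1*.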

How the data were processed

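The authors made the counts of UMIs per gene and cell with Cell Ranger 6.0.2, per the labels on mm10, and deposited them for each library without normalization. The members and gene lists were chosen with earlier results of these data known. Cells with under 7.5% mitochondrial UMIs, over 500 and under 50000 UMIs were kept, with a median of 7958 UMIs in NC and 9103 in WD. UMIs were summed per library and group of cells with Python 3.11.15, numpy 2.4.6, scipy 1.17.1 and pandas 2.3.3, and scaled to CPM. Cells were clustered in R 4.3.3 with Seurat 5.3.0. Its default log-normalized values of 2000 variable genes, among which neither the 10 factors nor the genes of the study's heatmaps were allowed, gave 20 principal components and a graph of 20 neighbours, on which Louvain clustering ran at resolution 0.15, and at 0.65 for subclusters. Doublets were not called. Cluster names needed at least 3 markers of a list, but cluster 0 (markers of 2 lists) and cluster 4 (red cell markers at 0 in NC) were left unnamed. Named genes are the factors, list members with at least 10 CPM in 1 library and the 3 most correlated genes. The ratios, pair shifts, fold calls and thinning were tested on simulated counts that held counting error only, without differences between mice. Clustering, co-detection and correlations were not simulated. Alternatives covered scaling (TMM of edgeR 4.0.16), thinning, cell filters, clusterings and thresholds. Positions are from GENCODE on GRCm38. *Tox* has no promoter entry in the table used.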

Additional observations from a re-analysis of the deposited data

Results flagged for a closer look

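In all, 5 values stood out because a factor or pair leaned one way in 1 cluster and the opposite way in another, each with an interval that excluded 0. The *Tcf7* log2 ratio of WD over NC was 1.32 higher in cluster 3 than in cluster 0. The *Id2* ratio was 1.20 higher in cluster 2 than in cluster 3, and the *Id3* ratio was 1.49 higher in cluster 3 than in cluster 2. The *Tcf7*/*Tox* shift was 1.69 higher in cluster 3 than in cluster 0, and the *Id2*/*Id3* shift was 2.69 higher in cluster 2 than in cluster 3. With 1 library per diet these differences between clusters were not tested. All 5 rest on cluster 3, where each turned its direction when taken as an unweighted mean of subclusters 1 and 7. The 2 subclusters did not lean alike. *Id2* was still lower in WD in subcluster 1 (-0.30, -0.38 to -0.23), which held 82.7% of the NC cells of cluster 3, and higher in subcluster 7 (0.64). *Id3* was lower in subcluster 1 (-1.46, -3.17 to -0.09), from 33 and 5 UMIs, and leaned higher in subcluster 7 (0.52, -0.13 to 1.19).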

How the results depend on the processing

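Of 191 main values under alternatives, 148 stayed within their counting interval (counts within 1.5 times), 35 moved by more and 8 changed sign, and of 530 other values 452, 69 and 9 did so. The log2 ratios of WD over NC over all cells that moved or changed sign are grouped by setting. With each cell thinned to 2000 UMIs they were *Eomes* 1.13, *Id2* 0.0068, *Id3* -0.55, *Bach2* 0.57, *Runx3* 0.030, and the shifts were *Tbx21*/*Eomes* -1.5, *Id2*/*Id3* 0.55. Thinned to 1000 UMIs they were *Tox* 0.23, *Eomes* 1.15, *Id2* 0.15, *Id3* 0.033, *Prdm1* -0.78, *Runx3* -0.031, with shifts of *Tcf7*/*Tox* -0.22, *Tbx21*/*Eomes* -1.34, *Bach2*/*Prdm1* 0.83, and *Tcf7* in cluster 0 was 0.055 and *Id2* in cluster 1 0.046. The *Tbx21*/*Eomes* co-detection log2 odds ratio was then 1.12 in NC and -1.13 in WD. As a mean of clusters they were *Tcf7* 0.18, *Eomes* 0.64, *Id2* 0.068, *Id3* 0.12, *Runx3* 0.0017, *Gata3* 0.024 and the shift *Tcf7*/*Tox* -0.16. As a mean of subclusters they were *Id2* 0.19, *Prdm1* -0.085, *Runx3* 0.034 and the shift *Id2*/*Id3* 0.41. As a mean over cells they were *Tox* 0.22, *Id2* 0.014, *Prdm1* -0.39, *Runx3* 0.039. With all deposited cells they were *Tcf7* -0.17, *Id2* -0.28 and the shift *Tcf7*/*Tox* -0.50, and with TMM scaling *Id2* was -0.24. In cluster 3, taken within its subclusters (added after seeing the data), *Tcf7* was -0.16, *Id2* 0.17, *Id3* -0.47, *Prdm1* 0.12, and the shifts *Tcf7*/*Tox* -0.56, *Id2*/*Id3* 0.64 and *Bach2*/*Prdm1* -0.15. The mean of subclusters was also added after seeing the data. Genes past 1.5-fold numbered 117 higher and 93 lower. They numbered 68 and 50 with at least 25 CPM, 807 and 576 with no CPM minimum, and 22 and 27 past 2-fold. The causes were not tested. No paired analysis was possible because each diet had 1 library, and no replicate was left out. The depth limits *Bach2*, *Prdm1*, *Id3* and *Tbx21* within clusters, where many intervals included 0.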

Other observations

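Cells outside the kept range were looked at apart. In the 83 NC and 121 WD cells with 50000 or more UMIs, *Eomes* stood at 34.1 and 41.2 CPM (log2 ratio 0.27, 0.02 to 0.53), *Tox* at 134 and 164 CPM (0.29, 0.16 to 0.41) and *Id2* at 531 and 355 CPM (-0.58, -0.65 to -0.51). In the 158 NC and 213 WD cells with 7.5% or more mitochondrial UMIs, *Eomes* stood at 68.5 and 71.3 CPM (0.06, -0.70 to 0.86), a difference within counting error.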
